A study of Brassica napus with 12 samples.

Results

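One stretch of Brassica napus chromosome A09, taken here as the 791 loci whose deposited positions start between 1306 and 3841942, was followed through 12 leaf RNA-seq libraries together with its homologues on chromosome C09. The stretch was picked because its transcripts were low in some libraries in an earlier look at these data, so its members were chosen by the A09 levels in these libraries, which are given as a description and support no test. It holds 791 of 101040 loci in the table and 791 of 5157 loci on A09. B. napus is an allotetraploid that carries an A genome from Brassica rapa and a C genome from Brassica oleracea, and most of its genes exist as an A copy and a C copy called homoeologues. The chromosomes A09 and C09 share long collinear segments, and exchanges between homoeologous chromosomes are known in this species. When both copies of a gene are expressed, its output is the sum of both, and the share of each copy is a usual measure of which subgenome contributes. DNA was not measured here.

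All plants were of the genotype RV31, were grown for 21 days in white light of 70 µmol m−2 s−1, and gave true leaf tissue. The 6 groups, each of 2 libraries numbered 41 and 42, were UV-B (3 µmol m−2 s−1 for 4 h), herbivory (Plutella xylostella larvae for 1 h, tissue taken 4 h later), MeJA (4 mL of 100 µM methyl jasmonate in 0.01% ethanol and 0.01% of the wetting agent UN65), ethanol and UN65 (4 mL of the same 0.01% ethanol and 0.01% UN65 without MeJA), water (4 mL distilled water) and white light (at 70 µmol m−2 s−1, with no UV-B). Sprayed leaves were also taken after 4 h. By the study's methods, sprayed plants were kept after treatment in dimmer white light than that of growth, each covered with a propagator. Herbivory plants were likewise kept in dimmer white light, in a cabinet set warmer than for growth. The study's methods state that independent replicates of a treatment were pooled, and whether a library here is 1 plant or a pool is not known, so the spread between 2 libraries may be technical. Leaf genes were high in every library, with RCA (Rubisco activase) between 2651 and 16431 FPKM and LHCA1, of photosystem I, between 507 and 4258 FPKM. The seed storage gene CRA1 stayed at or below 0.215 FPKM and the floral gene AG at or below 0.155 FPKM. The other seed and floral markers were higher, with OLEO1 at 0.734 to 6.68 FPKM, SESA1 at up to 3.56 FPKM and AP3 at 0.292 to 1.72 FPKM. The leaf marker RBCS1A was at 0.209 to 19.9 FPKM over its single matched locus, and RBCS2B matched no locus. FPKM are fragments per transcript length and library size, and all levels are FPKM rescaled so that the median locus was equal between libraries.

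Of the 791 loci, 389 averaged at least 1 FPKM over the 12 libraries, 441 reached 1 FPKM in at least 2 libraries and could be tested, and 177 were listed at 0 throughout. An Arabidopsis match was given for 736 loci, which carried 685 Arabidopsis IDs. A C09 locus with the same ID was found for 493 of them (72.0%). These C09 partners numbered 563, of which 359 could be tested. For 428 IDs there was exactly 1 locus in the stretch and 1 on C09, and 317 of these one-to-one pairs had a summed mean of at least 1 FPKM.

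The stretch fell into 3 blocks, whose limits were set after the values were seen. A near-end block of 74 loci (A09, 1306 to 414442, BnaA09g00010D to BnaA09g00740D) had matches almost entirely on Arabidopsis chromosome 4, in 63 of 68 matched loci. A middle block of 679 loci (A09, 476937 to 3709211, BnaA09g00750D to BnaA09g07530D) had 409 of 634 matches on Arabidopsis chromosome 5, 102 on chromosome 4 and 97 on chromosome 3. A far-end block of 38 loci (A09, 3713880 to 3841942, BnaA09g07540D to BnaA09g07910D) had 33 of 34 matches on Arabidopsis chromosome 5. A C09 partner existed for 495 middle loci, 32 far-end loci and 2 near-end loci. Of the 300 measured middle pairs, 297 had their C09 copy between 738 and 4632882 on C09, and the starts of these pairs ran in almost the same order on both chromosomes (Spearman's rho = 1.00 over 297 pairs, a description of position only).

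By annotation, the 791 loci included 51 of ubiquitin and proteolysis, 41 transcription factors, 35 kinases and phosphatases, 27 transporters, 23 of photosynthesis and the plastid, 20 oxidoreductases and P450s, and 104 unknown or unnamed proteins. Of 4 pathway lists, 1 of 15 UV-B response genes (RUP2) and 1 of 26 glucosinolate genes (MYB34) had a locus in the stretch, and none of 21 jasmonate genes or 18 phenylpropanoid and lignin genes did.

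Over the 389 measured loci the stretch was low in whole libraries, and not by group. The median locus stood at −2.06 in MeJA 41, −2.26 in water 41 and −2.06 in water 42, on a log2 scale relative to its own median library with a pseudocount of 1 FPKM. In MeJA 42 it stood at −0.38. In the other 8 libraries it stood between 0.16 and 0.30. Loci listed at 0 numbered 235 in MeJA 41, 223 in water 41 and 232 in water 42, against 6 in MeJA 42 and at most 2 in each of the other 8. Both water libraries therefore lay below both ethanol and UN65 libraries and both white light libraries, whereas the 2 MeJA libraries lay far apart. The rest of A09, 2138 measured loci, stayed within −0.02 and 0.03 in every library. In such bulk tissue, fewer cells that express a locus and less RNA per cell cannot be told apart.

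**Figure D1:**
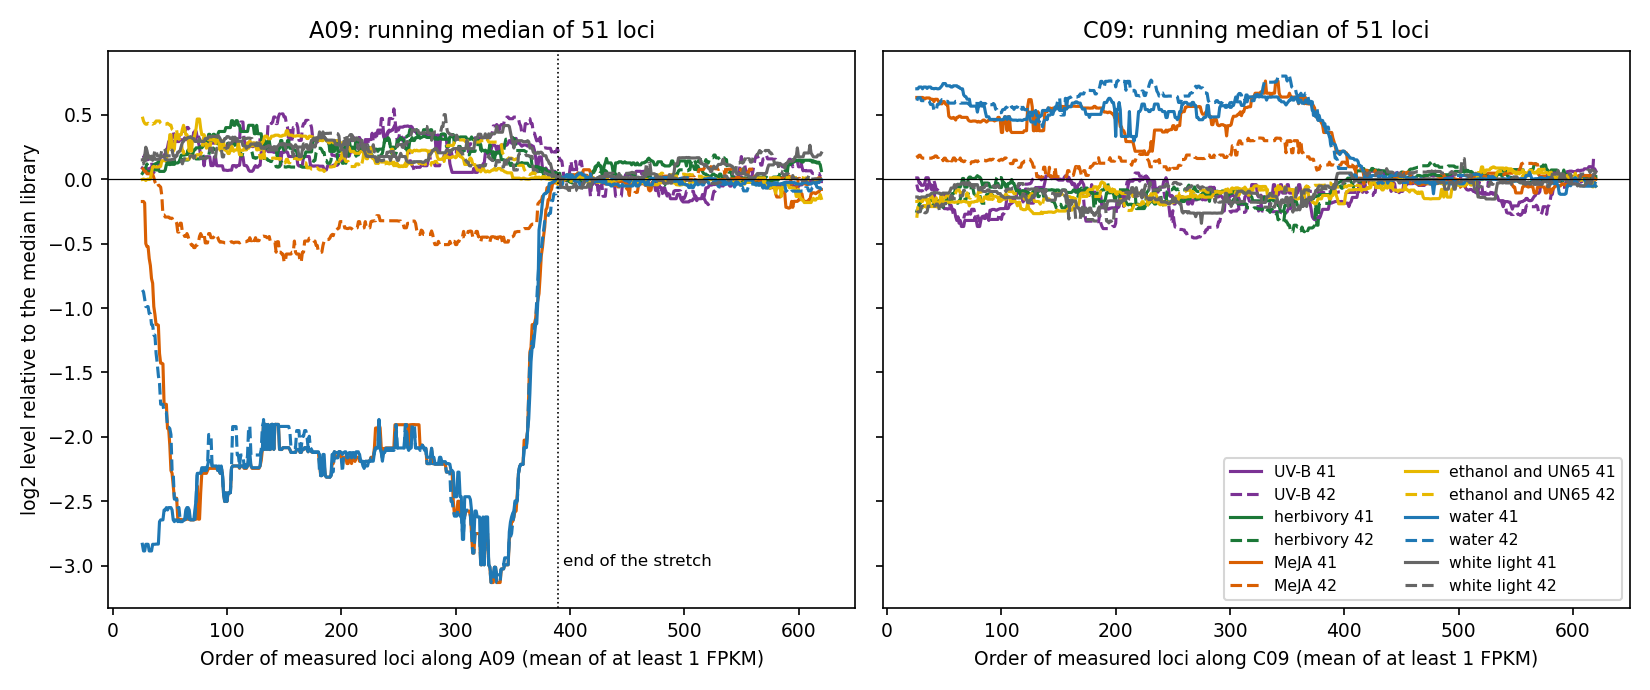
Running median of 51 measured loci along A09 (left) and C09 (right), as log2 level relative to each locus's median library, with 1 line per library (solid, replicate 41; dashed, replicate 42) and the end of the stretch dotted. On A09, MeJA 41, water 41 and water 42 run near −2 or below over the middle of the stretch and MeJA 42 runs at about its median of −0.38, while on C09 the same 4 lines run above the other 8 and meet them further along.

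The far edge of the low part was sharp and lay at the same place in the 3 lowest libraries. The running median of 51 loci last stood at or below −1 at BnaA09g07490D (A09, start 3699980) in MeJA 41 and water 42 and at BnaA09g07510D (start 3704033) in water 41. BnaA09g07510D, an FMN-linked oxidoreductase and the last measured locus of the middle block, had 11 and 14.3 FPKM with UV-B, 9.17 and 13.7 with herbivory, 0.507 and 6.01 with MeJA, 6.57 and 8.27 with ethanol and UN65, 0.575 and 0.387 with water, and 9.98 and 8.73 in white light. The next measured locus, BnaA09g07540D (DEAR2, a DREB-type transcription factor), had 3.51 and 0.826 FPKM with UV-B, 1.29 and 1.17 with herbivory, 1.26 and 1.56 with MeJA, 2.74 and 3.37 with ethanol and UN65, 2.12 and 5.56 with water, and 1.73 and 3.44 in white light. These neighbours are 7276 bases apart, and only the first was low in MeJA 41 and both water libraries. Across the 18 measured far-end loci, the library medians lay between −0.08 and 0.08.

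The last member of the stretch, BnaA09g07910D (A09, 3841020 to 3841942, a protein of unknown function), had 10.2 and 3.87 FPKM with MeJA, 6.44 and 3.01 with ethanol and UN65, and 7.41 and 17.1 with water. BnaA09g07880D, annotated for RNA binding, had 24.5 and 23.7 FPKM with MeJA, 24.5 and 27.5 with ethanol and UN65, and 31.3 and 20.2 with water, and BnaA09g07850D, a Maf-like protein, had 13.3 and 13.6, 19.5 and 14.5, and 20.2 and 18.5 in the same order. Just outside, BnaA09g07940D (unknown protein, start 3848537) had 1.93 and 2.09 FPKM with MeJA, 2.03 and 1.38 with ethanol and UN65, and 2.2 and 0.923 with water. The GATA factor gene GATA5 (BnaA09g07950D) had 0.973 and 1.93 FPKM with MeJA, 3.53 and 4.24 with ethanol and UN65, and 2.05 and 2.78 with water, and the glutaredoxin gene BnaA09g07960D had 12.5 and 10, 13 and 11.2, and 10.2 and 10.5 in that order. The chosen limit of the stretch thus lies beyond the step, among loci that were not low.

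The near edge of the low part differed between libraries. BnaA09g00700D (RSH1, a RelA/SpoT homologue), the last measured locus of the near-end block, had 4.03 and 7.75 FPKM with MeJA, 5.19 and 7.87 with ethanol and UN65, and 0 and 1.48 with water. BnaA09g00790D (SR34, a splicing factor) had 0 and 7.87 FPKM with MeJA, 19.1 and 20 with ethanol and UN65, and 0.0658 and 0 with water. Between them lie 96120 bases without a measured locus before BnaA09g00770D, an ARM repeat protein, which was listed at 0 in MeJA 41, water 41 and water 42. MeJA 41 was therefore low after this gap and not before it, water 41 was low on both sides, and water 42 was low after it and lower than most libraries before it.

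In the near-end block, 23 of 36 measured loci were listed at 0 in water 41 and at most 1 in any other library. The median of these 36 loci was −2.83 in water 41 and −0.73 in water 42, against −0.03 and 0.54 in the ethanol and UN65 libraries and 0.03 and 0.42 in the MeJA libraries. The very first locus, BnaA09g00010D (a TRAF-like protein, start 1306), had 0.0749 and 2.68 FPKM with MeJA, 0.0683 and 4.12 with ethanol and UN65, and 0 and 0.640 with water. BnaA09g00050D, a protein kinase gene, had 68.8 and 70.8 FPKM with MeJA, 55.7 and 81.2 with ethanol and UN65, and 0.0457 and 39.9 with water. STE24 (BnaA09g00060D), which encodes a CAAX protease, had 13.1 and 12.6 FPKM with MeJA, 14.9 and 21.2 with ethanol and UN65, and 0 and 7.55 with water.

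Few near-end loci had a C09 partner, but 45 had a single match on unplaced sequence of the C genome, and 35 of these pairs were measured. They were looked up after the A09 values were seen. The median unplaced C copy stood at 0.66 in water 41 and 0.42 in water 42, and at −0.47 in both MeJA 42 and ethanol and UN65 42. In the other 8 libraries it stood between −0.12 and 0.03. The A09 copy of these pairs took a median share of 64.1% in MeJA 42 and 64.1% in ethanol and UN65 42, 0% in water 41 and 22.1% in water 42, and between 36.4% and 44.8% in the other 8. The totals stayed within −0.10 and 0.11 in all 12 libraries. The A09 and the unplaced C copies thus moved in opposite directions in 4 libraries, in MeJA 42 and ethanol and UN65 42 with the A09 copy as the higher one, and the set of libraries was not that of the middle block.

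Among the near-end pairs, chosen after the values were seen, a locus matched to AT4G01150, which the authors' annotation lists as an unknown protein, had a high level in both copies. Its A09 copy BnaA09g00150D had 408 and 647 FPKM with MeJA, 348 and 439 with ethanol and UN65, and 2.81 and 116 with water. The unplaced C copy BnaCnng01930D had 431 and 228 FPKM with MeJA, 363 and 151 with ethanol and UN65, and 1057 and 410 with water. The ethanol and UN65 libraries of this pair therefore differed from each other in opposite ways for the 2 copies.

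**Figure D2:**
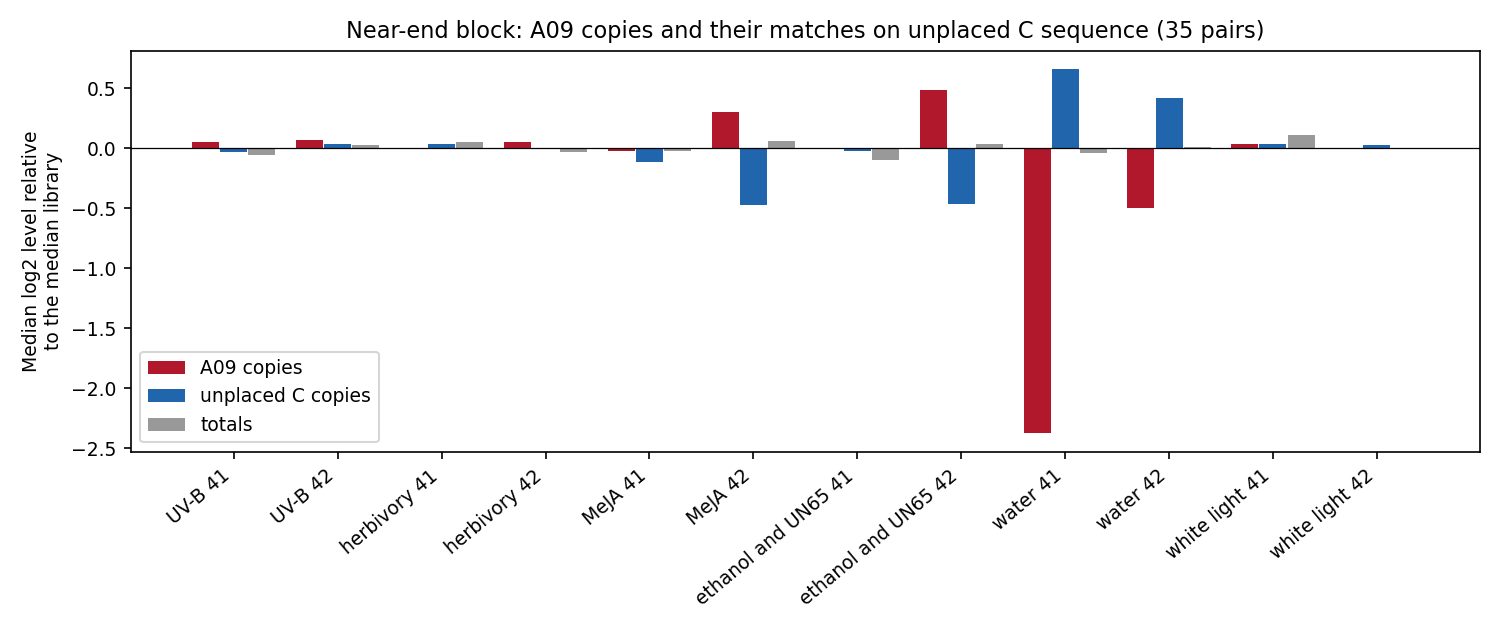
Median log2 level of 35 near-end pairs relative to the median library, in each of 12 libraries, for the A09 copies, the matching unplaced C copies and their totals. The A09 bar reaches −2.38 in water 41, and the unplaced C bars run opposite to the A09 bars in water 41, water 42, MeJA 42 and ethanol and UN65 42, with totals between −0.10 and 0.11.

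In the middle block the low libraries were the same for nearly every expressed gene. Of 222 middle loci with a mean of at least 3 FPKM, 211 lay below −1 in MeJA 41, 211 in water 41 and 209 in water 42, with 151, 117 and 149 listed at 0 in these 3 libraries. In MeJA 42, 45 of the 222 lay below −1 and 4 were at 0, and at most 9 lay below −1 in each of the other 8. Only 3 middle loci with that mean stayed above −0.5 in all 3 of the lowest libraries. Farnesylated protein 3 (BnaA09g06630D) had 42.5 and 49.2 FPKM with MeJA, 33.4 and 39.5 with ethanol and UN65, and 29.9 and 37.0 with water. Acetoacetyl-CoA thiolase 2 (BnaA09g02880D), an enzyme of the mevalonate pathway, had 5.19 and 5.38 FPKM with MeJA, 8.41 and 6.66 with ethanol and UN65, and 5.08 and 5.94 with water. The third, BnaA09g03440D, is matched to a glycine-rich protein and had 2.03 and 0.760 FPKM with MeJA, 4.22 and 7.28 with ethanol and UN65, and 2.54 and 8.87 with water. All 3 have other loci in the table with the same Arabidopsis match. This is not particular to them, since all but 12 of the 685 Arabidopsis IDs of the stretch also have a locus outside it. Whether reads shared between near-identical copies were split in the authors' counting was not tested.

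Among loci with a mean of at least 3 FPKM, the 5 of the whole stretch with the highest level in water 41 relative to their own median library all lay in the far-end block. They were PSBO-1 (0.63), the Maf-like gene BnaA09g07850D (0.49), the peptide hormone gene RALFL34 (BnaA09g07580D, 0.47), BnaA09g07910D (0.44) and BnaA09g07880D (0.34). RALFL34 had 3.69 and 3.45 FPKM with MeJA, 3.26 and 5.86 with ethanol and UN65, and 5.31 and 2.64 with water.

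The C09 homologues moved the other way in the same libraries, and the choice of the stretch had not used their values. Over the 317 measured pairs, the median C09 copy stood at 0.51 in MeJA 41, 0.15 in MeJA 42, 0.51 in water 41 and 0.63 in water 42, against −0.18 to −0.10 in the other 8 libraries. The total of both copies stood between −0.05 and 0.06 in all 12. For the 1895 measured C09 loci that are not partners, the library medians lay between −0.01 and 0.03. The median A09 share was 0% in MeJA 41, water 41 and water 42 and 21.8% in MeJA 42. In the other 8 libraries it lay between 43.3% and 45.5%.

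**Figure D3:**
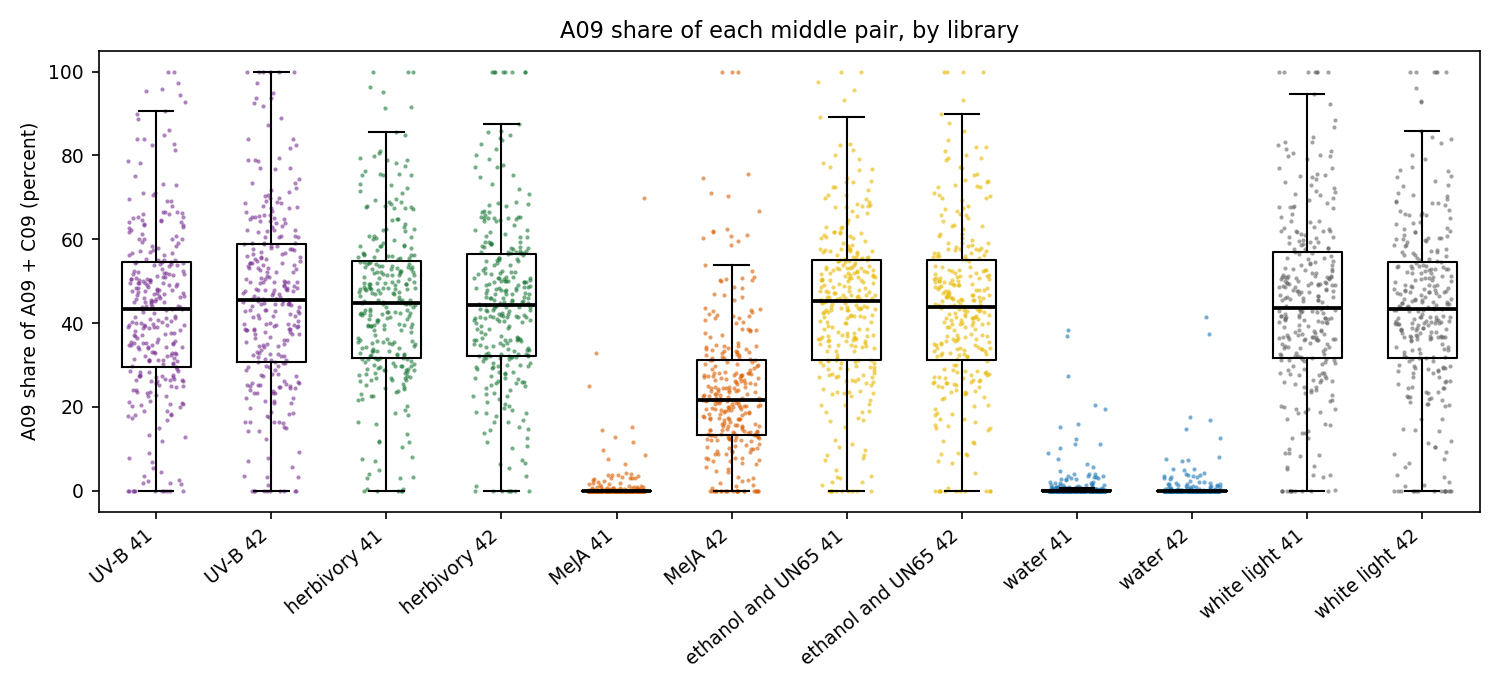
A09 share of the summed A09 and C09 level, in percent, with 1 point for each of the 300 measured middle pairs in each library and boxes for the quartiles, a line for the median and whiskers to 1.5 times the box height. The boxes of MeJA 41, water 41 and water 42 lie at 0% or close to it, that of MeJA 42 runs between 13.3% and 31.3%, and the other 8 have medians between 43.3% and 45.5%.

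The shares of single middle pairs were spread widely where both copies were expressed. In white light 41 their quartiles were 31.6% and 56.9%, and in ethanol and UN65 41 they were 31.3% and 55.0%. An A09 share under 5% was found for 283 of 300 middle pairs in MeJA 41, 283 in water 41 and 286 in water 42. That held for 33 pairs in MeJA 42 and for 10 to 21 in each of the other 8. In the far-end block, 17 measured pairs had median A09 shares of 40% to 51.1% in all 12 libraries.

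The contrast between the 2 spray controls sets ethanol and UN65 against water, since both water libraries were low on A09. Tested with limma on log2(FPKM + 1), 0 of the 359 tested C09 partners were called, a call needing a Benjamini-Hochberg p (over 49700 loci) below 0.05 together with a change of 1 or more on the log2 scale. In the same limma fit 150 partners had an unadjusted p under 0.05, and each of the 150 was lower with ethanol and UN65 than with water. Over all loci, 1.16% had an unadjusted p under 0.05 and were lower in this contrast, and 0.00402% were called in either direction. The partners' median log2 fold change was −0.71, against 0.00 over all loci tested, and 336 of 359 lay below 0, against 49.2% of all loci. In each contrast the partners are mostly C09 neighbours measured in the same libraries, so such counts are not over independent loci. Left without 1 of the 4 libraries of this contrast, the 150 became 78 to 107, and the median stayed between −0.65 and −0.72. Without the filter on low values, over 563 partners, the median was −0.35. The 150 all belonged to the 339 partners of middle loci, with a median of −0.74. The 20 partners of far-end loci had a median of −0.07 and none with an unadjusted p under 0.05.

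For the A09 loci themselves, which the choice of the stretch fixed, the same contrast had a median log2 fold change of 2.34, and 1 of 441 was called. That locus, BnaA09g02840D, encodes ribosomal protein S27 and had 6.14 and 8.95 FPKM with ethanol and UN65 and 0 in both water libraries. The number called reached 59 when these 2 groups were fitted alone and 234 when either MeJA library was left out.

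Water against white light called 27 of 359 C09 partners, each of them higher with water (limma, Benjamini-Hochberg), against 0.537% of all loci called higher. The partners' median log2 fold change was 0.71, against −0.03 over all loci, and 154 had an unadjusted p under 0.05 and were higher, against 9.55% of all loci. The count of 27 was 7 without either ethanol and UN65 library and 13 without either herbivory library, and it was 0 when any 1 of the 4 water and white light libraries was left out or when these 2 groups were fitted alone, while the median stayed between 0.65 and 0.76. Without the filter the median was 0.26. These plants differed in spray, in light during treatment and in the propagator cover, and the parts of these cannot be told apart. The ethanol and UN65 plants had the same spray volume, light and cover as the water plants. Their median C09 copy over the measured pairs stood at −0.13 and −0.10, against −0.14 and −0.11 in white light and 0.51 and 0.63 with water. What underlies this was not tested. On A09, 118 of 441 stretch loci were called and each was lower with water (0.706% of all loci were), a count that the choice of the stretch by these levels had fixed and that is given as a description. It was 0 without water 41 or either white light library, 5 without water 42 and 250 without either MeJA library.

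The called C09 partners with the smallest p in water against white light were XTH9, a Sas10/Utp3 family gene and a Tudor/PWWP/MBT gene. XTH9, a xyloglucan endotransglucosylase of the cell wall, had 173 and 235 FPKM in its C09 copy BnaC09g00910D with water against 18.6 and 20.4 in white light (log2 fold change 3.31 ± 0.39 SE, limma adjusted p = 0.024). Its A09 copy BnaA09g01390D had 0.298 and 0 FPKM with water and 13.2 and 15.4 in white light, and 133 and 92.9 with ethanol and UN65. The C09 copy had 124 and 94.0 FPKM with ethanol and UN65, so that both copies were high in that control and only the C09 copy was high with water. The Sas10/Utp3 gene BnaC09g04170D had 11.8 and 11.9 FPKM with water against 2.92 and 2.92 in white light (1.71 ± 0.23 SE, limma adjusted p = 0.028), and the Tudor gene BnaC09g03250D had 22.9 and 26.6 against 6.08 and 6.78 (1.79 ± 0.25 SE, limma adjusted p = 0.028).

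In MeJA against water, 1 C09 partner and 1 stretch locus were called by limma with Benjamini-Hochberg adjustment, against 0.453% of all loci. The partner was SAL1 (BnaC09g06200D), an inositol monophosphatase family gene, which had 113 and 78.1 FPKM with MeJA against 15.6 and 13.4 with water (2.62 ± 0.39 SE, limma adjusted p = 0.035). No partner was called when any 1 UV-B, herbivory, MeJA, ethanol and UN65 or water library was left out or when these 2 groups were fitted alone, and without the filter the single partner called was lower with MeJA. Its A09 copy BnaA09g06680D had 0 and 21.1 FPKM with MeJA, 15.8 and 9.67 with ethanol and UN65, and 0 in both water libraries. The A09 locus called was SYP42 (BnaA09g00660D), a syntaxin gene of the near-end block, with 3.21 and 3.20 FPKM with MeJA against 0 and 0.670 with water. No stretch locus was called without the filter, with these 2 groups alone, with a replicate block, with a pseudocount of 0.1 or without any 1 of 9 other libraries, while 89 were called without MeJA 41 and 11 without water 42. MeJA against ethanol and UN65 called 0 partners and 0 stretch loci in limma, against 0.00402% of all loci, with 102 partners at an unadjusted p under 0.05, of which 101 were higher with MeJA, against 4.81% of all loci. Of the stretch loci, 285 had an unadjusted p under 0.05 (8.79% of all loci did), which the choice of the stretch by these levels had fixed and which is only a description. Without MeJA 42, 185 stretch loci were called. These contrasts share their MeJA or control libraries, and MeJA 41 alone of the 2 MeJA libraries was at the low A09 level.

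In UV-B against white light, where no library was low on A09, 10 of 359 partners and 4 of 441 stretch loci were called by limma, against 3.42% of all loci. The 4 stretch loci were all higher with UV-B, against 2.56% of all loci called higher, so that their share was not above that of all loci. The count of 4 was 0 without UV-B 42 or either white light library, in a fit of these 2 groups alone, without the filter and with a pseudocount of 0.1, it was 2 without either herbivory or either ethanol and UN65 library and with values as deposited, and it was 12 without UV-B 41 or either MeJA library. Cryptochrome 3 (CRY3, BnaA09g04780D), a cryptochrome of the DASH type, had 10.2 and 16.5 FPKM with UV-B against 1.8 and 0.597 in white light (log2 fold change 2.72, limma adjusted p = 0.021). The transcription factor gene bZIP1 (BnaA09g03330D) had 19.0 and 37.2 FPKM with UV-B against 0 and 2.47 in white light, and ACX2 (BnaA09g07080D), an acyl-CoA oxidase of fatty acid breakdown, had 14.0 and 29.2 against 1.97 and 3.76. The fourth was the GRAS factor gene PAT1 (BnaA09g02850D), which acts in phytochrome A signalling in Arabidopsis, with 5.26 and 8.47 FPKM against 1.57 and 1.71. All 4 were at 0.0455 FPKM or below in MeJA 41, water 41 and water 42. Of the partners, MYB111 (BnaC09g02660D), a regulator of flavonol synthesis, had 6.37 and 4.58 FPKM with UV-B against 0.276 and 0.326 in white light (2.30 ± 0.32 SE, limma adjusted p = 0.015). A C09 gene of unknown function, BnaC09g04390D, had 25.6 and 62.9 FPKM against 6.26 and 4.82 (2.67 ± 0.42 SE, limma adjusted p = 0.020), and the DUF179 gene BnaC09g02040D had 202 and 381 against 47.9 and 45.4 (2.55 ± 0.43 SE, limma adjusted p = 0.023). The number of partners called was 0 without either white light library and in a fit of these 2 groups alone, 2 without UV-B 42 and 4 without either ethanol and UN65 library.

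RUP2, a WD40 repeat protein that represses UV-B photoreceptor signalling, is the UV-B response gene of the stretch. Its A09 copy (BnaA09g05170D) had 25.9 and 96.5 FPKM with UV-B against 9.87 and 1.61 in white light (3.26 ± 0.90 SE, limma adjusted p = 0.082), and its C09 copy (BnaC09g04740D) had 26.3 and 93.0 against 7.97 and 1.33 (3.47 ± 0.83 SE, limma adjusted p = 0.056). Neither passed the threshold. In MeJA 41, water 41 and water 42 the A09 copy was listed at 0, where the C09 copy had 0.389, 4.12 and 1.20 FPKM. MYB34, a regulator of indole glucosinolate synthesis, did not exceed 0.460 FPKM in its A09 copy or 0.209 FPKM in its C09 copy in any library. In herbivory against white light, limma called 0 partners and 0 stretch loci, against 0.0201% of all loci, with 24 partners and 27 stretch loci at an unadjusted p under 0.05, against 9.09% of all loci at that p.

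The 10 pairs with the highest summed mean were mostly genes of the chloroplast. Of these, 9 lay in the middle block and all 9 had A09 shares of 3.79% or less in MeJA 41, water 41 and water 42. The largest was LHCB2.3, a light harvesting protein of photosystem II. Its A09 copy BnaA09g02120D (A09, 1043222 to 1044364) had 213 and 931 FPKM with UV-B, 3091 and 1173 with herbivory, 0.708 and 884 with MeJA, 1451 and 2478 with ethanol and UN65, 5.65 and 0.603 with water, and 3210 and 1306 in white light. Its C09 copy BnaC09g01520D (C09, 834349 to 835666) had 358 and 2871 FPKM with UV-B, 2181 and 758 with herbivory, 1261 and 2326 with MeJA, 1022 and 1599 with ethanol and UN65, 4821 and 2013 with water, and 2748 and 841 in white light. The C09 copy was thus at its highest in water 41, while the summed level in that library, 4827 FPKM, lay inside the range of 571 to 5958 over the others.

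PETC, the Rieske protein of the cytochrome b6f complex, showed the pattern with less spread between treatments. Its A09 copy BnaA09g01470D had 718 and 1424 FPKM with UV-B, 477 and 292 with herbivory, 0.0777 and 313 with MeJA, 387 and 307 with ethanol and UN65, 0.712 and 0.199 with water, and 1272 and 549 in white light. Its A09 share lay between 40.3% and 43.7% in the 8 libraries outside the MeJA and water groups, at 18.8% in MeJA 42, and at or below 0.0430% in MeJA 41 and both water libraries. The C09 copy BnaC09g00580D had 1393 and 1352 FPKM with MeJA, 505 and 455 with ethanol and UN65, and 1653 and 874 with water.

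PSAN, a small subunit of photosystem I, is the pair among these 10 with the largest A09 share, at 79.9% to 84.2% in the 8 libraries outside the MeJA and water groups. BnaA09g06690D had 0.116 and 604 FPKM with MeJA, 1081 and 962 with ethanol and UN65, and 1.76 and 0.491 with water. Its C09 copy BnaC09g06210D had 452 and 427 FPKM with MeJA, 268 and 210 with ethanol and UN65, and 748 and 443 with water. The summed PSAN level was 453 and 1031 FPKM with MeJA, 1349 and 1172 with ethanol and UN65, and 749 and 444 with water, so that both water libraries lay below both ethanol and UN65 libraries.

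PSAD-1, another subunit of photosystem I, had the opposite balance, with an A09 share of 23.3% to 31.2% in the same 8 libraries. BnaA09g01080D kept 57.0 FPKM in MeJA 41, 112 in water 41 and 103 in water 42, which was 2.49%, 2.18% and 3.79% of the pair. The summed level was 2291 and 2969 FPKM with MeJA, 2275 and 2647 with ethanol and UN65, and 5128 and 2722 with water, so that both water libraries lay above both ethanol and UN65 libraries, while MeJA 42 lay above water 42. A putative ribosomal protein of the chloroplast (BnaA09g04830D) likewise kept 5.71 FPKM in MeJA 41 and 7.04 and 9.90 with water, against 274 and 299 with ethanol and UN65.

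The other middle pairs among the 10 were thioredoxin m2, GHS1 (ribosomal protein S21), SQE5 (a squalene epoxidase family gene) and GSH2 (glutathione synthetase). Thioredoxin m2 had an A09 level of 0 and 107 FPKM with MeJA, 179 and 203 with ethanol and UN65, and 0.238 and 0 with water, beside C09 levels of 575 and 420, 254 and 268, and 575 and 537. GHS1 had A09 shares of 0.403% in MeJA 41 and 0.327% and 0.197% with water, against 46.0% and 51.9% with ethanol and UN65. SQE5 had A09 shares of 9.75% and 11.5% with ethanol and UN65 and up to 50.0% elsewhere, so that its balance differed between libraries that were not low on A09. GSH2 had a summed level of 561 and 329 FPKM with MeJA, 180 and 167 with ethanol and UN65, and 136 and 232 with water, and in MeJA 41, where its A09 copy had 0.567 FPKM, its C09 copy BnaC09g03120D had 560 FPKM. The tenth pair, PSBO-1 of the oxygen-evolving complex, lies in the far-end block (BnaA09g07840D, A09, 3815454 to 3817267), and its A09 share was 36.3% to 45.2% in all 12 libraries.

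**Figure D4:**
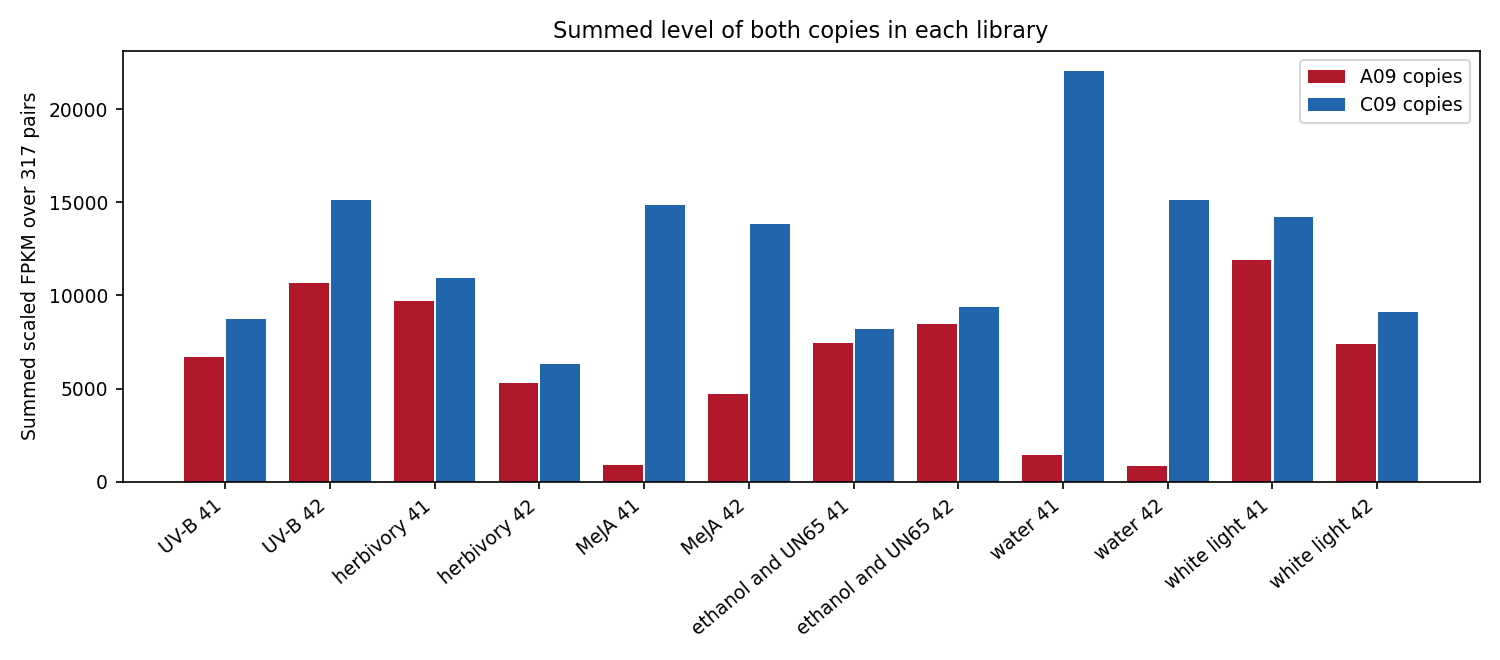
Summed level over the 317 measured pairs, in rescaled FPKM, of the A09 copies and the C09 copies in each library. The A09 bar is 891 in MeJA 41, 1420 in water 41 and 823 in water 42, against 4699 in MeJA 42 and 5279 to 11925 in the other 8, and the C09 bars run between 6298 and 22038.

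Summed over the 317 pairs, the A09 copies made up 5.66% and 25.3% of the output with MeJA, 47.6% and 47.5% with ethanol and UN65, and 6.05% and 5.16% with water. In the UV-B, herbivory and white light libraries they made up 41.4% to 47.0%. The summed output of both copies was 15734 and 18541 FPKM with MeJA, 15647 and 17849 with ethanol and UN65, 23458 and 15969 with water, and 26115 and 16483 in white light. The difference between the 2 water libraries was larger than that between the water and the ethanol and UN65 means, so that a difference in summed output was not resolved. A few photosynthesis pairs carry much of these sums.

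Copy compensation was taken pair by pair from ethanol and UN65 against water, over the 218 middle pairs with a summed mean of at least 5 FPKM. The C09 copy was lower with ethanol and UN65 than with water in 215 of 218 pairs, with a median log2 ratio of −0.94 and quartiles of −1.20 and −0.70. This corresponds to a C09 level 1.91 times as high with water. The median was between −0.88 and −0.96 for each of the 4 pairings of 1 ethanol and UN65 library with 1 water library. The total of both copies had a median log2 ratio of −0.11 with quartiles of −0.39 and 0.19, and 155 of 218 pairs (71.1%) had a total within 1.5-fold. How many other loci stayed within 1.5-fold in this contrast was not counted, so the 71.1% is only a description. Over the 12 far-end pairs of the same level, the median C09 log2 ratio was −0.02.

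How much higher the C09 copy was with water did not follow how much the A09 copy contributed in white light. The 218 pairs were ordered by their A09 share in the 2 white light libraries, which enter neither side of the ratio. Where that share was under 20% (15 pairs), the median C09 log2 ratio of ethanol and UN65 over water was −0.90, at 20% to 40% (70 pairs) it was −0.91, at 40% to 60% (100 pairs) −0.98, at 60% to 80% (26 pairs) −0.86, and at 80% or more (7 pairs) −0.34. Across all 218 pairs Spearman's rho between the white light share and this ratio was −0.03, a description over genes that share the same libraries. The first and the last of these bins are thin.

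The total therefore shifted with the share. Its median log2 ratio of ethanol and UN65 over water was −0.79 for shares under 20%, −0.31 at 20% to 40%, −0.01 at 40% to 60%, 0.48 at 60% to 80%, and 1.08 at 80% or more. The total was lower with ethanol and UN65 than with water in 15 of 15 pairs of the lowest bin, in 58 of 70 of the next, in 50 of 100 of the middle bin, in 5 of 26 of the fourth and in 0 of 7 of the highest. Spearman's rho over the 218 pairs was 0.60. The near-zero median total over the block thus held for pairs with balanced copies, while C09-rich pairs had more output with water and A09-rich pairs had less. The choice of the stretch had fixed the A09 levels near 0 with water. Since the C09 ratio did not follow the share, the shift of the total with the share follows from those levels and is only a description.

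**Figure D5:**
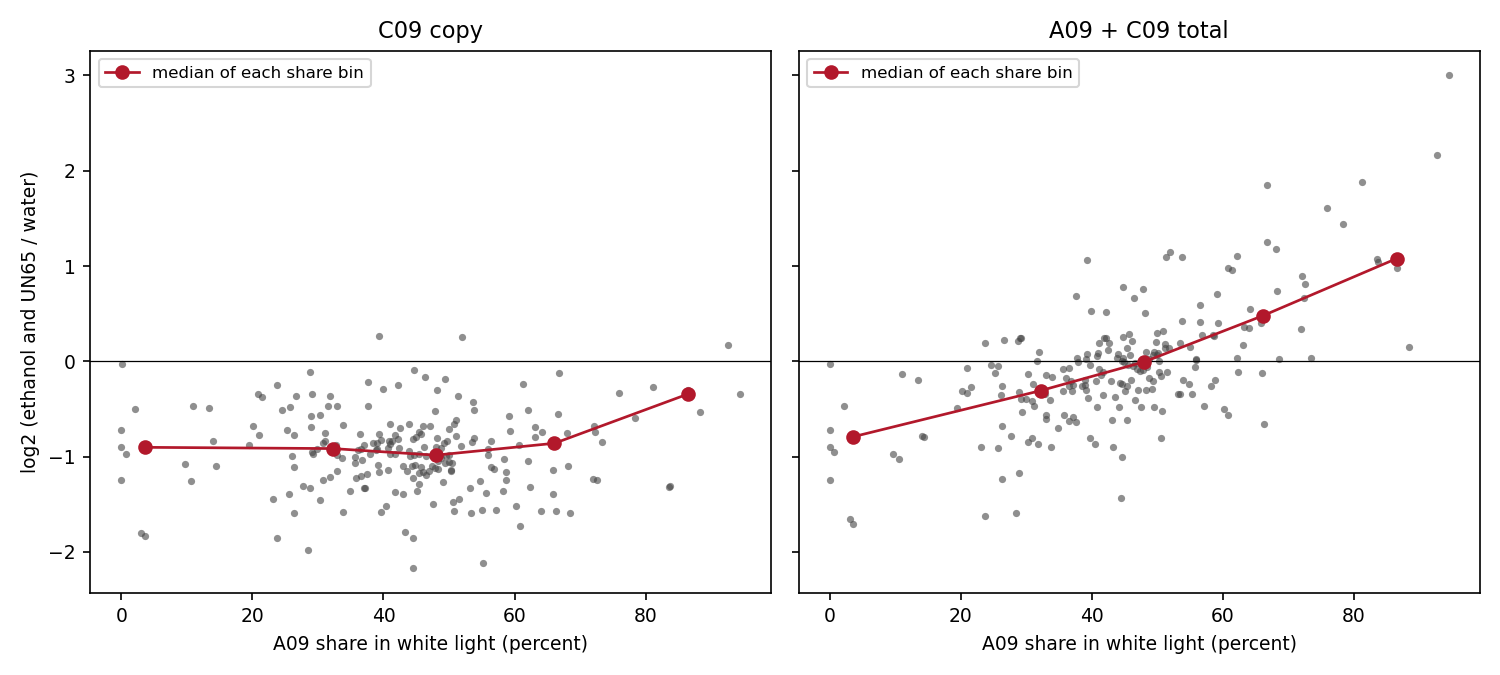
Each point is 1 of 218 middle pairs, placed by its A09 share in white light (percent, horizontal) and by the log2 ratio of ethanol and UN65 over water (vertical) for the C09 copy (left) and for the total of both copies (right), with red points at the median of each share bin. The C09 medians stay between −0.98 and −0.86 below a share of 80% and the medians of the total climb from −0.79 in the lowest bin to 1.08 in the highest.

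By annotated class, the median C09 copy was lower with ethanol and UN65 than with water in every class, and the classes were not tested against each other. The median C09 log2 ratio of ethanol and UN65 over water was −1.11 over 13 pairs of photosynthesis and the plastid, −0.94 over 10 transcription factor pairs, −0.96 over 10 transporter pairs, −1.14 over 18 pairs of ubiquitin and proteolysis and −0.61 over 9 pairs of kinases and phosphatases. The median totals of these 5 classes lay between −0.12 and 0.08. Apart from the 32 unknown or unnamed pairs, with a median C09 log2 ratio of −1.15, each other class held at most 6 such pairs.

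Of the 685 Arabidopsis IDs in the stretch, 192 had no C09 locus, 61 of them in the near-end block and 129 in the middle block. Of the 192, 135 had a locus with the same ID on unplaced sequence of the C genome. IDs were compared with their isoform suffix, so a locus matched to another isoform of the same gene counts as a different ID. For 12 IDs no locus with the same ID exists outside the stretch in the table, and 4 of these averaged at least 1 FPKM. Of the 4, 3 lie in the middle block, and each of these was listed at 0 in MeJA 41, water 41 and water 42. No transcript with these exact IDs was thus recorded in those libraries, and other isoforms of the same genes were not looked up. The nuclear protein gene NPX1 (BnaA09g06540D) had 13.5 and 5.25 FPKM with UV-B, 4.74 and 5.39 with herbivory, 3.07 in MeJA 42, 4.13 and 5.89 with ethanol and UN65, and 2.86 and 2.91 in white light. The kelch repeat gene BnaA09g01250D had 2.18 FPKM in MeJA 42, 3.24 and 4.23 with ethanol and UN65, and 3.88 and 4.73 in white light. EIF4A-2 (BnaA09g05980D), matched to a translation initiation factor, had 27.8 and 6.56 FPKM with UV-B, 0.145 in MeJA 42, 6.23 and 0.657 with ethanol and UN65, and 6.89 and 11.1 in white light. The fourth, the DUF547 gene BnaA09g07810D of the far-end block, had 0.776 and 1.20 FPKM with MeJA, 2.21 and 1.09 with ethanol and UN65, and 1.10 and 1.07 with water. These matches name the most similar Arabidopsis gene, and other members of the same gene families may be expressed from elsewhere.

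Where it could be read, the relative depth of the low libraries lay within the range of the others. Its part in the low levels was not tested. In 10 libraries low FPKM values moved in steps of single reads, which gave relative depths of 72.7% in MeJA 41, 72.5% in water 41 and 87.6% in water 42 of the deepest library (herbivory 42), against 72.0% in MeJA 42 and 59.2% to 100% over all 10. The steps could not be read in UV-B 41 and ethanol and UN65 41. In the libraries read other than water 41, the reference, the estimate rested on 17.4% to 35.8% of the low loci compared. Over 23 stretch loci with a clear lowest step, 1 read was worth a median of 0.0430 to 0.0726 FPKM, so that levels near 0.1 FPKM rest on a few reads.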

How the data were processed

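RNA-seq was made from true leaves of B. napus RV31, with a TruSeq RNA kit, in 12 libraries of 6 groups. Reads were aligned by the authors with TopHat2 2.1.12 to a B. napus genome and quantified with Cufflinks 2.2.1. The build name is not given in the sources used here. The deposited matrix, although named as counts, holds FPKM as the authors made them, with a scaling that was done separately for each comparison table. Positions, Arabidopsis matches (TAIR10) and functions are the authors' annotation. Columns of the authors' fold changes and p-values, and 22 single-library columns that match no label, were not used. Locus status marked 1 locus as too deep (HIDATA), which was left out.

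FPKM were divided by each library's median ratio to the mean library over the 49700 loci that reached 1 FPKM in 2 or more libraries. Tests used limma 3.58.1 in R 4.3.3 (moderated, with trend, one mean per group over all 12 libraries) on log2(FPKM + 1), Benjamini-Hochberg adjustment over all 49700 loci, and calls required an adjusted p below 0.05 with a log2 change of 1 or more. The pseudocount understates the change of low loci. The steps were tested on simulated data. Descriptions used Python with pandas and numpy. Partners are C09 loci with the same Arabidopsis ID, isoform suffix included. Pairs are IDs with 1 locus on each side, and levels relative to the median library are log2 differences.

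The stretch, its lists, its blocks and the tests were chosen with earlier results of these data known. Named loci are the 10 pairs with the highest mean, the 3 measured loci at each end and just beyond the far end, the 5 loci with mean of at least 3 that stood highest in the lowest library, the 3 called partners of smallest p in each comparison, and list members. Loci named for other reasons were chosen after their values were seen: those at the inner edges of the blocks, the middle loci that were not low, the stretch loci called, the near-end pair and the loci found only in the stretch. Alternatives were another filter, pseudocount, scaling, pairing of copies and minimum mean, fits of 2 groups, a replicate block and leaving out each library. No sequence is shown, because the tables used here hold none for these loci.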

Additional observations from a re-analysis of the deposited data

How the results depend on the processing

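The size of the library medians and the counts of called loci both depended on the processing. Of 60 library medians, 39 moved with values as deposited, 38 with the mean library as reference, 27 with a minimum mean of 5 and 26 with a pseudocount of 0.1. The A09 stretch median moved by up to 2.66 (log2, pseudocount 0.1), the C09 median by up to 0.23 and the median A09 share by up to 1.16 percentage points. Without the filter on low values, the median log2 fold change of C09 partners was −0.35 in ethanol and UN65 against water and 0.26 in water against white light, over more loci of low level. Stretch loci called were then 0 in UV-B, 1 in herbivory and 2 in water against white light, 0 in MeJA and 3 in ethanol and UN65 against water, and 2 in MeJA against ethanol and UN65, and partners called were 4 in UV-B against white light, 1 in ethanol and UN65 against water and 5 in water against white light. With the 2 compared groups alone, stretch loci called were 0 in UV-B and 70 in water against white light, and 0 in MeJA and 59 in ethanol and UN65 against water, and partners called were 0 in each of UV-B against white light, MeJA against water and water against white light. With a pseudocount of 0.1, stretch loci called were 0 in UV-B and 43 in water against white light and 0 in MeJA and in ethanol and UN65 against water, and partners called were 14 in water against white light. With values as deposited, stretch loci called were 2 in UV-B against white light and 1 in MeJA against ethanol and UN65, and partners called were 6 in UV-B and 78 in water against white light and 2 in MeJA against water. With columns of equal totals, stretch loci called were 0 in MeJA and 4 in ethanol and UN65 against water and 44 in water against white light, partners called were 9 in water against white light, and partners lower at an unadjusted p under 0.05 in ethanol and UN65 against water were 83. With windows of 21 loci the far edge in water 41 was at 3699980. The cause of these shifts was not tested.

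Leaving out each library in turn gave 0 to 12 stretch loci and 0 to 15 partners called in UV-B against white light, 0 to 2 stretch loci in herbivory against white light, 0 to 89 stretch loci and 0 to 1 partners in MeJA against water, 0 to 234 stretch loci in ethanol and UN65 against water, 0 to 185 stretch loci in MeJA against ethanol and UN65, and 0 to 250 stretch loci and 0 to 39 partners in water against white light. Partners lower at an unadjusted p under 0.05 in ethanol and UN65 against water were 78 to 152, the median log2 C09 ratio was −0.98 to −0.87, and that of the pair total was −0.13 to −0.031. The leave-one-out of these last 2 medians, and their values from a minimum mean of 1 and from deposited values, were chosen after seeing the data. A group left with 1 library is assumed to vary like the others.

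Same-numbered libraries did not deviate together in most pairs of groups, but did in some. Of 15 correlations, 4 were over 0.1, with a range of −0.371 to 0.408. The numbers were therefore not taken as pairs in the main fit. With the replicate number as a block, stretch loci called in MeJA against water were 0, partners lower in ethanol and UN65 against water were 149, and partners called in water against white light were 22.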

Other observations

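Some loci that the assembly assigns to A09 without a position were low in the same 3 libraries as the middle block, and most were not. Of loci with a mean of at least 3 FPKM, 17 of 187 (9.09%) on unplaced A09 sequence lay below −1 in all of MeJA 41, water 41 and water 42, as did 211 of 258 in the stretch, 1 of 1504 on the rest of A09, 19 of 1174 (1.62%) on unplaced sequence of the A genome and 1.16% of all 31699 loci. The most abundant of the 17 was RPS1 (BnaA09g51670D), a plastid ribosomal protein S1 gene, with 0 and 96.7 FPKM with MeJA, 190 and 208 with ethanol and UN65, and 0.292 and 0.0981 with water. UVR8 (BnaA09g52370D), matched to the UV-B photoreceptor of Arabidopsis, was another of the 17 and had 0.105 and 2.32 FPKM with MeJA, 10.7 and 7.23 with ethanol and UN65, and 0.107 and 0.0451 with water. Both were picked after their values were seen, and where these sequences lie on A09 was not tested. The study cloned its B. napus UVR8 from a locus on another chromosome. Levels of other UVR8 loci are not given here, so these values do not describe the total UVR8 transcript.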
